A study of Homo sapiens with 2 samples.

Results

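The transcription factors that drive epithelial-mesenchymal transition (EMT) and the miR-200 microRNA genes that restrain 2 of them were examined in a map of JARID2 on chromatin. The set holds 10 genes, namely SNAI1, SNAI2, ZEB1, ZEB2, TWIST1, TWIST2, MIR200B, MIR200C, MIR141 and MIR429. Rows of the authors' annotated peak list whose gene symbol is 1 of these were taken, which gave 13 of 67071 peaks for 5 of the 10 genes. The cells were untreated MDA-MB-231, an established line from human breast cancer of the triple-negative type with mesenchymal traits. The labels name 1 library precipitated with a polyclonal JARID2 antibody and 1 input library of the same cells that was not precipitated. Only the peak list of the precipitated library was used, so there was no replicate, no test between groups and no measure of gene expression. Fold enrichment (a linear ratio of ChIP to the peak caller's background), tag count and false discovery rate (FDR, in percent) are the authors' own values for each peak on hg19.

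SNAI and ZEB proteins are zinc finger repressors and TWIST proteins are basic helix-loop-helix factors, and all of them bind E-box motifs in DNA and silence epithelial genes such as the E-cadherin gene CDH1. The miR-200 microRNAs bind the 3′ untranslated regions (UTRs) of ZEB1 and ZEB2 messages, and the ZEB proteins in turn repress the miR-200 genes, so that each side holds the other down. JARID2 is an accessory subunit of Polycomb repressive complex 2 (PRC2), which places a silencing methyl mark on histone H3, and studies in other cancer lines have linked it to silencing of CDH1 and miR-200 genes during EMT.

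The miR-200 family falls into 2 seed groups, which are shown because the genes of each group lie at both of the family's loci. Only 1 locus had peaks named for a miR-200 gene. The mature sequences are from RefSeq (GRCh38.p14), 5′ to 3′, with the seed (bases 2 to 8) in capitals.

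hsa-miR-200b-3p: uAAUACUGccugguaaugauga

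hsa-miR-200c-3p: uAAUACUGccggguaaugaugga

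hsa-miR-429: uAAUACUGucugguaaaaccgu

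hsa-miR-141-3p: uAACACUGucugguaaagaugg

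hsa-miR-200a-3p: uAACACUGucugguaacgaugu

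Both seeds differ at 1 base, U4C counted from the 5′ end of the microRNA. The message sites that pair with them read CAGUAUU for the first 3 microRNAs and CAGUGUU for the last 2. MIR200A is not 1 of the 10 genes and is shown because it shares a transcript with MIR200B and MIR429 on chromosome 1. MIR200C and MIR141 share the other transcript, on chromosome 12.

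Most peaks of the EMT genes were of ordinary height and carried more tags than the typical peak. Their fold enrichment ran from 4.59 to 13.58 with a median of 6.55, beside 5.95 over all peaks. Their tags ran from 10 to 66 with a median of 22, beside 12 over all peaks, of which the smallest held 9. The peaks of the EMT genes were also longer, with a median of 687 bp beside 510 bp, and tags are not adjusted for length. The listed peaks held 1000395 tags in all, and since only peaks are listed the depth of the library is unknown. Poisson intervals below are 95% and describe counting error alone, as tags copied by PCR are not separate molecules. By annotation class 6 of the 13 peaks were promoter peaks (within 3 kb of a transcription start site), where this class makes up 20.5% of the list. Another 2 lay in exons, 1 in a 3′ UTR, 1 in an intron, 1 downstream of a gene and 2 in distal intergenic sequence.

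Of the 6 transcription factor genes, 4 had a peak and 3 had a promoter peak, where 56.3% and 33.1% of 20033 protein-coding genes did. Of the 4 microRNA genes, MIR200B alone had a peak and a promoter peak, where 22.5% and 7.00% of 1913 microRNA genes did. With 6 and 4 genes, none of these shares is read as different from the background. The FDR was 20% or lower in 4 of the 13 peaks, as in 4.15% of all peaks, and these belonged to ZEB2, SNAI1 and MIR200B. It was 5% or lower in 2 of the 13, both of ZEB2, as in 1.24% of all peaks.

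**Figure D1:**
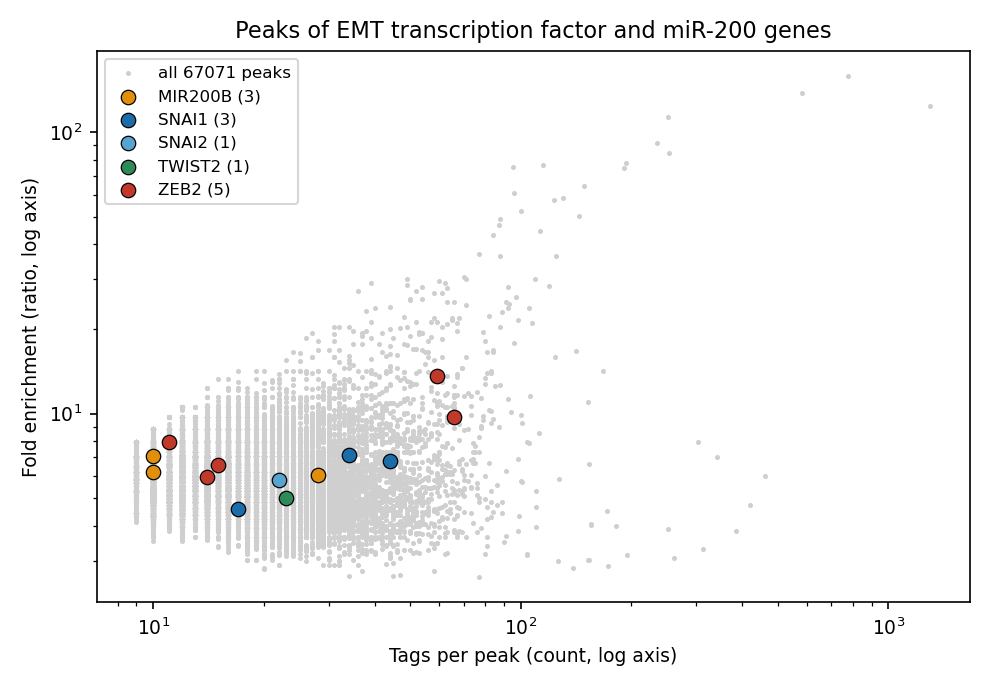
Fold enrichment (ratio, log axis) against tags per peak (count, log axis) for all 67071 listed peaks in grey and the 13 peaks of the EMT genes in colour, with the number of peaks per gene in brackets. The ZEB2 points at 59 and 66 tags stand to the upper right, and the other 11 lie within the bulk of the list below a fold enrichment of 8.

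ZEB2, the zinc finger and homeobox repressor also known as SIP1, had the strongest peaks of the set, and they lay in the body of the gene. A peak annotated to exon 8 of 10 of transcript ENST00000558170 (chromosome 2, 145155848 to 145157785, nearest listed transcript ENST00000497268) held 66 tags (Poisson interval 51.0 to 84.0) at a fold enrichment of 9.71 and an FDR of 0. A peak annotated to the 3′ UTR (chromosome 2, 145146609 to 145147648) held 59 tags (44.9 to 76.1) at 13.58, also with an FDR of 0. These 2 peaks stood far above the rest of ZEB2 in tags. A peak on exon 9, 1608 bp from the exon 8 peak, held 14 tags at 5.95 with an FDR of 45.8%.

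The ZEB2 promoter peaks were weak. A peak overlapping the start of transcript ENST00000440875 (chromosome 2, 145187711 to 145188176) held 11 tags (5.5 to 19.7) at 7.95 with an FDR of 43.6%. The other, at -2657 bp from the start of ENST00000475115 (145284118 to 145284804), held 15 tags (8.4 to 24.7) at 6.55 with an FDR of 46.6%. The ENST00000440875 peak lay between this peak and the exon 8 peak, 95941 bp from the first and 29925 bp from the second. Its transcript start is therefore itself inside the gene. The tag intervals of both promoter peaks lie below those of the exon 8 and 3′ UTR peaks. The peaks differ in length, at 1938 bp (exon 8) and 1040 bp (3′ UTR) against 466 and 687 bp. Per kb of peak the tags were 34.1 and 56.7 against 23.6 and 21.8, so the gap is smaller per kb. Of the 165 tags in ZEB2 peaks, the exon 8 and 3′ UTR peaks held 125, or 75.8% (exact interval 68.5 to 82.1), and the promoter peaks held 26. The exon 8 and 3′ UTR peaks were singled out for their low FDR, so a high share was built in. The interval describes counting error alone. The list named no intronic ZEB2 peak. A promoter-class peak named for AC009951.1 (145222924 to 145223417) lay between the ZEB2 promoter peaks, with 12 tags at 6.55 and an FDR of 47.0%. Promoter peaks name no host gene, so peaks inside ZEB2 may be listed under other symbols.

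Among exon and UTR peaks of the whole list, ZEB2 belonged to a small group. Exon, 5′ UTR and 3′ UTR peaks numbered 2659, and 38 of them (1.43%) had an FDR of at most 5%. By tags the exon 8 peak ranked 16 and the 3′ UTR peak 20 among the 2659. By fold enrichment they ranked 46 and 23. The exon 8 peak was also among the longest of any class, with 109 of 67071 peaks as long as its 1938 bp or longer. Of 2328 symbols with an exon or UTR peak, 5 (0.215%) had 2 or more at an FDR of at most 5%, a comparison chosen after the values were seen.

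The remaining 4 symbols were JARID2, the gene of the precipitated protein, with 7 such peaks, RNU7-20P with 4, TOPBP1 with 3 and KDM1A with 2. These 4 RNU7-20P peaks lay inside the transcripts that the list gives for EZH2, the methyltransferase of PRC2. Among peaks within that FDR limit the ZEB2 fold enrichments were the lowest of the 5, at 9.71 and 13.58, where the JARID2 peaks ran from 25.01 to 123.69, those named RNU7-20P from 21.83 to 57.62, those of KDM1A from 23.19 to 27.98 and those of TOPBP1 from 16.46 to 49.03. None of these symbols had an intronic peak with an FDR of 5% or lower. The list named 5 intronic peaks for JARID2, 1 for KDM1A, 1 for RNU7-20P and 0 for TOPBP1 and ZEB2. These counts are by symbol and leave out peaks inside the genes that carry other names. What produced exon and UTR peaks without intron peaks of like strength was not tested.

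**Figure D2:**
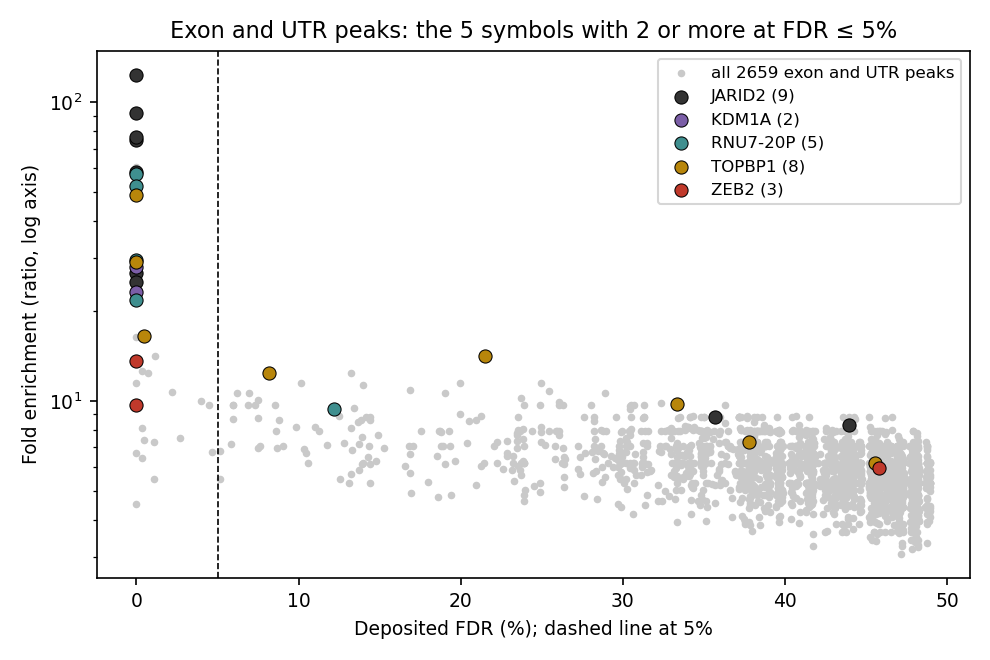
Fold enrichment (ratio, log axis) against deposited FDR (percent, dashed line at 5%) for all 2659 exon and UTR peaks in grey, with the 5 symbols that have 2 or more peaks at an FDR of at most 5% in colour and their number of exon and UTR peaks in brackets. The ZEB2 peaks at an FDR of 0 lie below the JARID2, RNU7-20P, KDM1A and TOPBP1 peaks at that FDR, and the ZEB2 peak on exon 9 lies among the weak peaks.

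SNAI1, the Snail repressor and an early inducer of EMT, had the best supported promoter of the set. A peak of 1194 bp overlapping its start site (chromosome 20, 48598476 to 48599669) held 44 tags (32.0 to 59.1) at a fold enrichment of 6.79 and an FDR of 5.81%. A second peak began 808 bp into the gene (48600343 to 48601484) and held 34 tags (23.5 to 47.5) at 7.12 with an FDR of 29.3%. The order of these peaks depended on the measure, since the first had more tags and the lower FDR and the second the higher fold enrichment, and their tag intervals overlapped. They were 673 bp apart, with summits at -459 and 983 bp from the start. The start-site peak had more tags than 98.8% of all peaks and a higher fold enrichment than 72.6% of promoter peaks. The remaining peak, 7017 bp from the start and downstream of the gene's end, held 17 tags at 4.59 with an FDR of 45.6%.

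SNAI2, which encodes the related repressor Slug, had 1 peak. It overlapped the start site on chromosome 8 (49833896 to 49834726) and held 22 tags (13.8 to 33.3) at a fold enrichment of 5.82 with an FDR of 29.3%. Its summit lay at -371 bp from the start, on the upstream side as in SNAI1. The tag intervals of the SNAI1 and SNAI2 start-site peaks overlapped slightly, and the difference between their counts was not tested.

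MIR200B was the 1 microRNA gene of the set with a peak named for it, and its peaks lay upstream of the hairpin. The promoter peak (chromosome 1, 1099598 to 1100383, at -2101 bp) held 28 tags (18.6 to 40.5) at a fold enrichment of 6.06 with an FDR of 10.4%. Its fold enrichment was ordinary, above 51.3% of all peaks, while its tag count was above 95.1%. Among 142 promoter peaks of microRNA genes it ranked 7 by lowest FDR, 10 by tags and 61 by fold enrichment. A pair of intergenic peaks lay at -10244 and -11069 bp, each with 10 tags (4.8 to 18.4), with fold enrichments of 7.06 and 6.18 and FDRs of 45.93% and 47.97%.

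**Figure D3:**
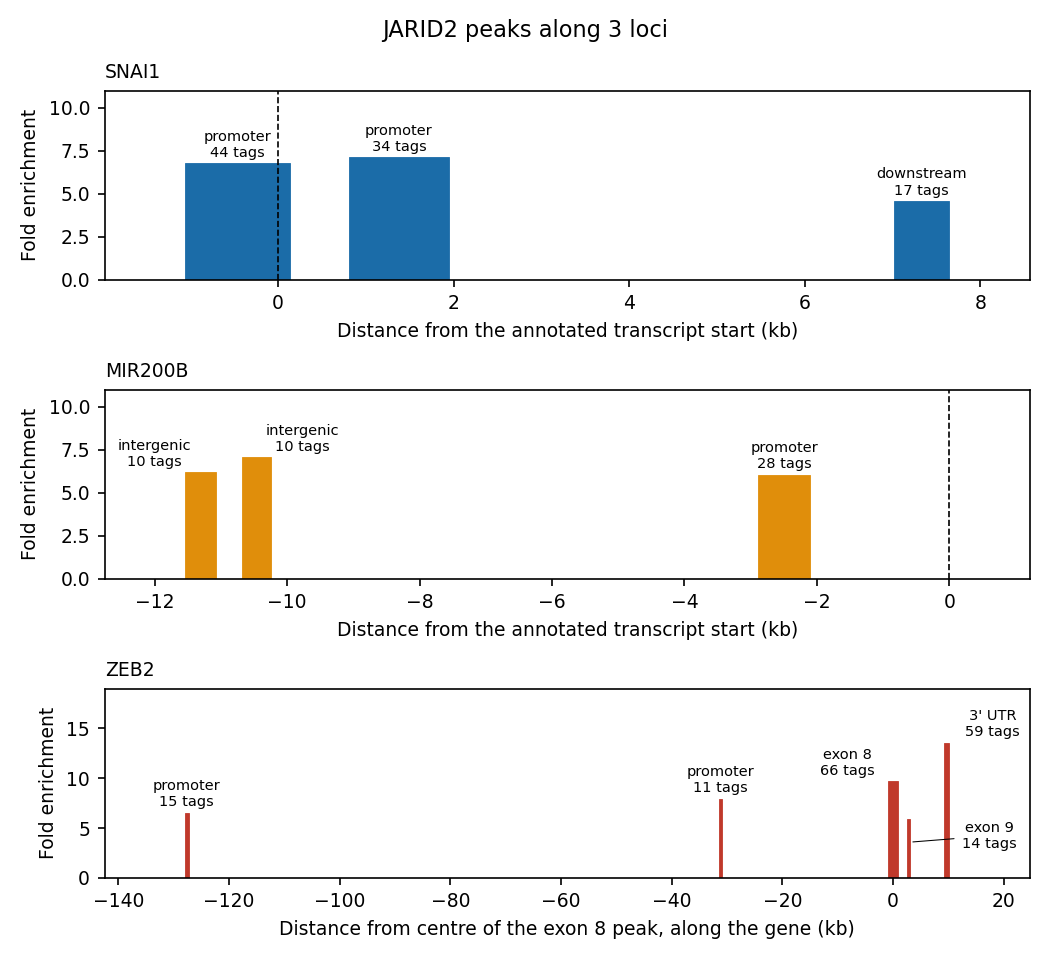
Peaks of SNAI1, MIR200B and ZEB2 drawn to scale as bars from peak start to peak end, with fold enrichment (ratio) as height, class and tag count as labels, and distance in kb along the gene on the x axis. Distances are from the annotated start (dashed line) for SNAI1 and MIR200B and from the centre of the exon 8 peak for ZEB2. The SNAI1 promoter peaks sit at and just after the start, the MIR200B promoter peak at -2101 bp, and the ZEB2 bars of 59 and 66 tags at the 3′ end of the gene.

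No row carried the symbol MIR429 or MIR200A, which lie after MIR200B in the same host transcript. Between the MIR200B promoter peak and the next listed peak on that side, at 1198161 to 1198493 and named for UBE2J2, there were 0 listed peaks. Each peak is named for its nearest transcript, so MIR200B takes any peak upstream of the cluster, and the 3 MIR200B peaks cannot be given to 1 of the cluster's microRNAs over the others.

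The chromosome 12 locus differed in that no peak was named for MIR200C or MIR141. In RefSeq both lie between C12orf57 and C1R, and between the peaks of those genes the list held 2 peaks. The nearer to C12orf57 (7084392 to 7085058, named for U47924.30) held 18 tags at a fold enrichment of 8.46 with an FDR of 26.3%. The C12orf57 start-site peak (7053117 to 7054011) held 28 tags at 4.85 with an FDR of 34.9%, and the 30380 bp from it to the U47924.30 peak held 0 listed peaks. The distance of these peaks from MIR200C was not determined, because no hg19 annotation was used.

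The start regions of both miR-200 host genes are shown because ZEB and SNAI proteins recognise the E-box CACCTG. RefSeq windows from 250 bases before to 50 after the start (GRCh38.p14, plus strand) are printed 5′ to 3′, chr1:1162627-1162926 for MIR200BHG and chr12:6962995-6963294 for MIR200CHG, with CACCTG or its reverse complement CAGGTG in capitals.

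MIR200BHG: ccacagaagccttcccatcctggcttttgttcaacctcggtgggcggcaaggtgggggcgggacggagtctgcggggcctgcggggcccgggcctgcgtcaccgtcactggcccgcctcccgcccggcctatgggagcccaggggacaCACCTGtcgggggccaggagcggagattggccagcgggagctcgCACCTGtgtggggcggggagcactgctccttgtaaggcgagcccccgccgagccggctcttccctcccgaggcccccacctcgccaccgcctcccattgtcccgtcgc

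MIR200CHG: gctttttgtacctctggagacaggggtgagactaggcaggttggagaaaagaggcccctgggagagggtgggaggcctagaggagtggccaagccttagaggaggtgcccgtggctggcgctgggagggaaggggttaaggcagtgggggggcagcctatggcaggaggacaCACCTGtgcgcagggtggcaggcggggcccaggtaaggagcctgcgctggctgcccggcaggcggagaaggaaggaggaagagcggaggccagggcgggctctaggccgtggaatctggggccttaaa

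MIR200BHG held 2 E-boxes, at -102 and -58 from the start, and MIR200CHG held 1, at -78. A window of this length held at least 1 of these motifs on either strand in 20.6% of 35116 RefSeq start windows and 2 or more in 3.49%. MIR200BHG also held 26 CpG dinucleotides and MIR200CHG 10, beside a median of 14. These matches describe the letters of the windows. Whether the MIR200B promoter peak overlaps the MIR200BHG start was not determined, since the peak is on hg19 and the window on GRCh38.p14.

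ZEB1, a repressor closely related to ZEB2, had no row under its own symbol, and the peaks read as its own were weak. Peaks in introns of the Ensembl gene ENSG00000148516 lay between the peaks of ZNF438 and ARHGAP12, and ZEB1 is the one named protein-coding gene between these in RefSeq, so they were read as ZEB1 peaks. There were 4, in introns 5, 6, 7 and 10 of 12, named for the non-coding transcripts RP11-192P3.5 and RP11-472N13.2. The intron 5 peak (chromosome 10, 31727613 to 31727941) held 10 tags at a fold enrichment of 6.75. The others held 21 tags at 3.92 in intron 6, 20 tags at 4.20 in intron 7 and 18 tags at 4.66 in intron 10. All 4 had FDRs between 42.9% and 47.3%, and the last 3 had a fold enrichment above only 1.66% to 11.3% of all peaks.

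A further peak near SPTLC1P1, a pseudogene that RefSeq places inside ZEB1, held 14 tags at 8.83 with an FDR of 28.8% (31648988 to 31649447). A peak at -2329 bp from RP11-192P3.5 (31654827 to 31655266) held 12 tags at 7.35 with an FDR of 43.0%. No promoter peak carried the symbol ZEB1, and no exon peak was annotated to ENSG00000148516. The list held 15 peaks between those of ZNF438 and ARHGAP12. Promoter, UTR and downstream peaks name no host gene, so others of the 15 may lie in ZEB1. Among the peaks described, the ZEB1 and ZEB2 loci differed. ZEB2 had 66 and 59 tags at an FDR of 0 in its body. The peaks described for ZEB1 had at most 21 tags at an FDR of 28.8% or more. With 1 library this difference has no replicate check.

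TWIST2 and TWIST1, which encode closely related basic helix-loop-helix inducers of EMT, had no promoter peak under their symbols. TWIST2 had 1 peak in its intron 1 (chromosome 2, 239772410 to 239773088), 15738 bp from the listed start, with 23 tags (14.6 to 34.5) at a fold enrichment of 5.0 and an FDR of 38.8%. TWIST1 had no row under its symbol. A pair of peaks in intron 2 of 3 of the Ensembl gene ENSG00000122691, read as TWIST1 by the same gene-order rule between HDAC9 and FERD3L, were named for AC003986.6. They held 13 tags at 4.85 (19104501 to 19104986, FDR 48.1%) and 18 tags at 6.24 (19119906 to 19120629, FDR 39.6%). The TWIST2 peak was low in the set by fold enrichment but not by tags, whose median was 22.

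The corepressors and chromatin partners that SNAI and ZEB proteins recruit held several well supported promoter peaks. Of 12 such genes, 9 had a peak and 7 a promoter peak (75.0% and 58.3%, beside 56.3% and 33.1% of protein-coding genes). A promoter peak with an FDR of 5% or lower was present at 3 of the 12, and at 2.47% of protein-coding genes. HDAC2, a deacetylase gene, had 57 tags at its start at a fold enrichment of 18.8 and an FDR of 0. CTBP1, which encodes a corepressor that ZEB proteins bind directly, had 45 tags at its start at 8.49 and an FDR of 0.27%. The demethylase gene KDM1A, a partner of SNAI1, had 193 tags at a start site (chromosome 1, 23345760 to 23346763) at 77.61 and an FDR of 0. Its highest promoter-class peak, with 253 tags at 84.67, lay further along the chromosome (23409610 to 23410322), 2245 bp from another listed start, and KDM1A is 1 of the 5 symbols with several strong exon or UTR peaks. Of the 11 peaks of these genes at an FDR of at most 5%, 8 were of KDM1A. The deacetylase gene SIRT1 reached 7.41 with an FDR of 8.19%. CTBP2 had 3 intronic peaks, of 3.77, 4.99 and 5.04, with FDRs of 37.3% or more.

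Epithelial genes that SNAI and ZEB proteins repress had promoter peaks at 12 of 22 genes (54.5%, beside 33.1% of all protein-coding genes). A promoter peak with an FDR of 5% or lower lay at 1 of the 22, and at 2.47% of protein-coding genes. CDH1, the best known target of SNAI and ZEB proteins, had 3 weak peaks, none within 2 kb of a listed start. They held 10 tags at 7.06 (FDR 41.4%), 13 tags at 9.71 in intron 2 of 15 (FDR 26.3%) and 10 tags at 6.18 in the promoter class, 2773 bp from a listed start (FDR 46.3%). CDH3, the P-cadherin gene, reached 7.95 (FDR 19.5%), the protease gene ST14 7.66 (FDR 37.1%), the polarity gene LLGL2 7.06 (FDR 48.8%) and the tight junction gene TJP3 6.79 (FDR 40.7%). The 1 gene past the FDR limit was EPCAM, an epithelial adhesion gene named here after its value was seen, with 53 tags at its start at 6.06 and an FDR of 4.53%.

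Epithelial transcription factors that oppose EMT had promoter peaks at 7 of 15 genes (46.7%, beside 33.1% of protein-coding genes). Of these, 0 reached an FDR of 5%. OVOL1 and OVOL2, which repress ZEB1, reached 8.73 (FDR 19.04%) and 6.97 (FDR 8.97%). ELF3 reached 7.28 (FDR 40.8%) and KLF5 6.97 (FDR 29.1%). Mesenchymal genes had promoter peaks at 10 of 22 genes (45.5%), also with 0 at an FDR of at most 5%. Among the highest were the intermediate filament gene VIM at 6.61 with 20 tags (FDR 35.0%), the fibronectin gene FN1 at 6.18 (FDR 48.1%) and the N-cadherin gene CDH2 at 5.66 (FDR 45.8%). At a promoter reach of 1 kb the counts were 7 of 22 epithelial genes, 4 of 15 epithelial factors and 5 of 22 mesenchymal genes. Promoter peaks in the top 25% of the list by fold enrichment lay at 3, 4 and 0 genes of these lists, and the difference between them was not tested. The share of all protein-coding genes was not determined under either limit, so these counts have no background beside them.

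EMT transcription factor genes outside the set had promoter peaks at 5 of 17 (29.4%, beside 33.1% of protein-coding genes). SOX4, which encodes an inducer of EMT, had 49 tags near its start at 10.07 with an FDR of 0.37% and a second promoter peak of 43 tags at 8.49 with an FDR of 3.13%. KLF8 reached 7.95, TCF12 6.74 and ID4 6.06, with FDRs of 40.4% or more. The SOX4 peaks at 10.07 and 8.49, 374 and 1686 bp from a listed start, passed the FDR limit that the SNAI1 start-site peak missed. The SOX4 peak that overlapped a listed start did not pass it, with 27 tags at 4.21 and an FDR of 35.4%.

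Signals that induce EMT had promoter peaks at 17 of 26 genes (65.4%, beside 33.1% of protein-coding genes). At an FDR of at most 5% there was 1 gene, beside 2.47% of protein-coding genes. That gene was HIF1A, a hypoxia response factor, at 20.35 (chromosome 14, 62206944 to 62208087), 166 bp from a listed start. Another HIF1A peak (62145914 to 62146692) lay -15539 bp from a different listed start. All HIF1A promoter-class peaks lay further along the chromosome than that start, so they are not at the first listed start. SMAD2, which carries TGF-beta signals, reached 12.37 (FDR 27.6%), the ligand gene TGFB1 8.96 (FDR 7.19%) and BMP7 7.7 (FDR 46.9%). Further BMP7 promoter peaks stood at 7.06 (FDR 13.8%), 6.18 (FDR 19.8%) and 5.46 (FDR 47.0%). The receptor gene TGFBR2 had 1 intergenic peak of 4.48 (FDR 45.6%).

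Other microRNA genes of EMT had peaks of low support. Promoter peaks lay at 3 of 17 genes that restrain EMT (17.6%, beside 7.00% of all microRNA genes), namely MIR1-2 at 7.95, MIR203A at 7.06 and MIR34C at 5.20, with FDRs of 29.8% or more. They lay at 3 of 11 genes that promote it (27.3%), namely MIR222 at 4.98, MIR221 at 4.16 and MIR21 at 3.64. The MIR200B promoter peak, with its FDR of 10.4%, had a lower FDR than any of these 6. Of 8 antisense and host transcripts of the set, 0 matched a row by symbol. The list gives non-coding transcripts at these loci under other names, such as AC003986.6, so this count does not show that they lack peaks.

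**Figure D4:**
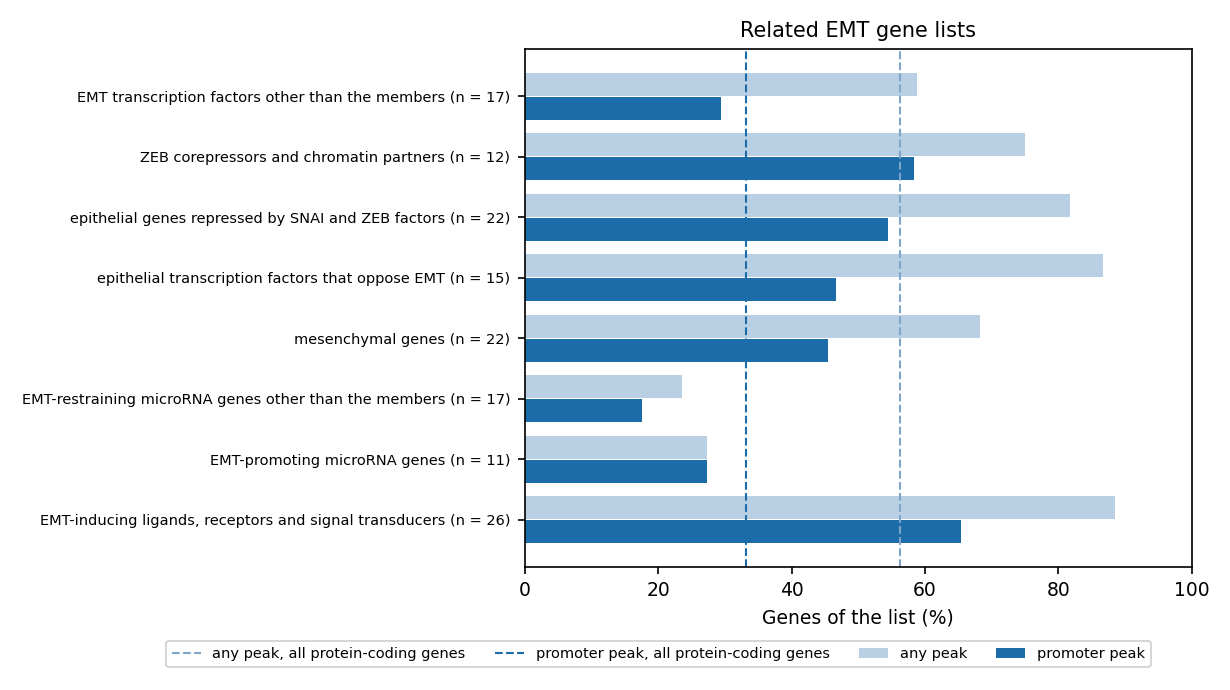
Percentage of genes in each related list, other than antisense and host transcripts, with any peak (light bars) and with a promoter peak (dark bars), with the share of all protein-coding genes as dashed lines at 56.3% and 33.1% and the number of genes in brackets. Bars of the 2 microRNA lists are to be read against 22.5% and 7.00% of microRNA genes. The other 6 lists lie above the any-peak line, and all but the other EMT transcription factors (29.4%) lie above the promoter line.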

How the data were processed

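The submitters' processing notes name hg19 and, without roles, ChIPseeker, MACS2, MACS, Bowtie 0.12.8 and bcl2fastq. Caller thresholds, duplicate handling and use of the input, settings not given in the sources used here, could change which peaks are listed. Tags are raw counts per peak, deposited by the authors without normalisation for 1 JARID2 library. Its fold enrichment is a linear ratio and its FDR a percent, per the file headers. The remaining deposited score has an unreadable header and was read as −log10 p multiplied by 10 from its smallest value of 30. A peak has 1 nearest transcript, which gives its symbol.

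Symbols were matched to RefSeq (GRCh38.p14) by name or by a synonym of 1 gene, with Python 3.11.15, pandas 2.3.3 and scipy 1.17.1. No hg19 genome was used. Intervals are exact Poisson or Clopper-Pearson. RefSeq start windows were found for ZEB1, ZEB2 and TWIST2 and mature sequences for all 4 microRNA members. Counting steps were tested on simulated data.

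The genes and lists were chosen with earlier results of these data known. Named are all members, up to 4 genes per related list by promoter fold enrichment, and CDH1, VIM, MIR200A, CTBP1, CTBP2 and TGFBR2. A gene of the mesenchymal list that this rule names is not reported here. Other genes, and neighbours other than C12orf57, C1R, ZNF438, ARHGAP12, FERD3L and UBE2J2, were named after their values were seen. Peaks per length of transcript, though planned, are not reported, because the listed ZEB2 transcripts do not cover its strongest peaks. Alternatives were stricter peak limits, a promoter reach of 1 kb, other gene assignments and merging of peaks closer than 1 kb.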

Additional observations from a re-analysis of the deposited data

How the results depend on the processing

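Stricter limits left few of the 13 peaks. Of all 67071 peaks, 1.24%, 4.15%, 12.9% and 25.2% passed the 4 limits, in the order given below. At an FDR of at most 5%, 1 gene (ZEB2) with 2 peaks remained, 0 genes had a promoter peak and the median fold enrichment was 11.6. At an FDR of at most 20%, 3 genes remained with 4 peaks, 2 of the genes had promoter peaks and the median was 8.25, and the highest fold enrichment became 6.06 for MIR200B and 6.79 for SNAI1. At −log10 p of at least 5, 6 peaks of 4 genes remained with a median of 6.96, and MIR200B again had 6.06. In the top 25% by fold enrichment, 3 genes had 5 peaks, 2 genes had promoter peaks and the median was 7.95. Promoter, exon and intron classes alone gave a median of 6.67. Counting host genes as well, chosen after the data were examined, gave 7 genes, 19 peaks and a median of 6.18. The related lists had 64 of 150 genes with a promoter peak, and 6, 13, 18 and 23 under these 4 limits in the order given. Promoter peaks lay at 33.1% of all protein-coding and 7.00% of all microRNA genes. At an FDR of at most 5% they lay at 2.47% of protein-coding genes. Shares under the other limits were not determined and the lists mix gene types, so these counts are not read as different from the background. The ZEB2 maximum of 13.58 stood under all 4 limits. A promoter reach of 1 kb left 3 of 4 genes, and merging left 11 peaks. No paired analysis was possible because only 1 library had a file. Peaks of 10 to 20 tags have wide counting intervals, which limits any ranking among them.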

Other observations

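A non-coding gene near SNAI1 had peaks of its own. TRERNA1 encodes an RNA that has been described as an enhancer of SNAI1. It had a start-site peak of 17 tags at a fold enrichment of 5.37 (chromosome 20, 48657667 to 48658311, FDR 45.3%) and a pair of intergenic peaks of 5.54 and 5.14 with FDRs of 48.2% and 47.8%. All 3 were weaker by FDR than both SNAI1 promoter peaks.

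Some distal peaks near genes of the related lists were better supported than most promoter peaks there. BMP4, a ligand gene, had an intergenic peak of 63 tags at 6.58 with an FDR of 0.27% upstream of its start (chromosome 14, 54429881 to 54431093). BMP7 had one of 37 tags at 7.85 with an FDR of 3.91%. FOXA1, a luminal pioneer factor gene, had a peak downstream of its end with 32 tags at 7.28 and an FDR of 4.61%, while its promoter-class peak held 14 tags at 4.48 with an FDR of 47.95%. The neighbour of TWIST1, FERD3L, was given 6 intergenic peaks, the best supported with 24 tags at 5.66 and an FDR of 17.1%. These genes were named after their values were seen.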
